A study of Mus musculus with 77 samples.

Results

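The 8 genes described here carry out fluid and bicarbonate transport in the pancreatic duct: Cftr, Slc26a6, Slc4a4, Slc4a2, Slc12a2, Car2, Aqp1 and Aqp5. They were chosen by name for their role, with earlier results of these data known, from the 46078 genes of the count table, and all 8 had reads in it. Expression was measured by RNA-seq in organoids grown from adult mouse pancreatic ducts (C57BL/6), after induction of Ngn3, the transcription factor that commits duct progenitors to the endocrine lineage, in its wild-type form (WT) or in a form whose serine-proline sites were all changed to alanine (6S-A). At 2 days of induction the groups were GFP only, WT Ngn3 and 6S-A Ngn3, each sorted as GFP+ cells from organoids of passage 2. At 8 days the groups were WT Ngn3 and 6S-A Ngn3 cells, each with a no-color group, that is, cells of the same infected organoids that showed no reporter. All constructs were delivered by lentivirus and induced through a Tet-on system, so every group, the controls included, came from infected and induced cultures, and no sample was labelled GFP only at 8 days. A caption of the paper nonetheless names GFP only as the control at both 2 and 8 days. Replicates 1 and 2 of the 8-day groups were of passage 2 and replicate 3 was of passage 5.

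Each library was made from a pool of 50 sorted cells, and 76 of 77 libraries passed the limits on depth and quality. Pools were summed within each of the 3 biological replicates per group, which gave 17757303 to 26627347 reads on genes per replicate at 2 days and 2397470 to 17919627 at 8 days. A replicate held 6 pools at 2 days and 1 to 3 pools at 8 days. Replicate 3 of each 8-day group and replicate 2 of 8-day WT were 1 pool each. Levels are given in CPM, that is, counts scaled to 1000000 reads, and spreads as SD over 3 replicates. Neurog3, which encodes Ngn3, was used to check the labels. It had at most 2 reads in any GFP replicate, against 89.5 to 205 CPM in the WT replicates and 99.9 to 198 CPM in the 6S-A replicates at 2 days. At 8 days it stood at 0 to 0.992 CPM in the no-color replicates, 6.9 to 46.4 CPM in WT and 9.87 to 15.4 CPM in 6S-A. Every replicate thus carried Neurog3 as its label says.

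The duct cell makes a bicarbonate-rich fluid that washes digestive enzymes out of the pancreas. Bicarbonate enters across the basolateral membrane through the sodium-bicarbonate cotransporter Slc4a4 or is made in the cell by the carbonic anhydrase Car2, and it leaves across the apical membrane through the chloride and bicarbonate channel Cftr and the anion exchanger Slc26a6. Slc4a2 exchanges chloride for bicarbonate at the basolateral side, Slc12a2 loads the cell with chloride together with sodium and potassium, and the aquaporins Aqp1 and Aqp5 let water follow the ions.

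The sequences before the transcription starts are shown for Cftr, whose level differed least between WT Ngn3 and GFP at 2 days, for Slc4a4, which was lower with both Ngn3 forms, and for Aqp1, which had no read in 6S-A cells at 8 days. Each is the 250 bases before a RefSeq start on build GRCm38.p6, on the plus strand, printed 5′ to 3′, and capitals mark an E-box (CANNTG), the core motif bound by bHLH factors such as Ngn3. The Cftr stretch is chr6:18170437-18170686, the Slc4a4 stretch is chr5:89027716-89027965 (before the second of its 2 starts in the table, inside the gene) and the Aqp1 stretch is chr6:55336049-55336298. None of these 3 stretches overlaps an annotated exon.
Cftr: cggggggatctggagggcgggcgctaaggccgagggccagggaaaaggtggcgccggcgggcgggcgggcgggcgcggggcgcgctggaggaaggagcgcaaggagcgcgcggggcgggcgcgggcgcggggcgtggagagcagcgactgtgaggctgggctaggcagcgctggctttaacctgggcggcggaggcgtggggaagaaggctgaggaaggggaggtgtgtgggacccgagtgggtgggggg
Slc4a4: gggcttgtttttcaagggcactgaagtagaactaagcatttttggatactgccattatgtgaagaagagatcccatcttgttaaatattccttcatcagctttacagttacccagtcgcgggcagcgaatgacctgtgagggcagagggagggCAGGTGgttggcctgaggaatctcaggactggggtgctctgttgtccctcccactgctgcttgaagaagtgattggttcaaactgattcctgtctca
Aqp1: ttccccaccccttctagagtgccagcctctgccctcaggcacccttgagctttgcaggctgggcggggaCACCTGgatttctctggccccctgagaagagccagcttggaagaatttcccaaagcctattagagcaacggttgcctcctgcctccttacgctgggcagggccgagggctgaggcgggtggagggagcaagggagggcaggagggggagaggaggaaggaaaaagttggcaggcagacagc
The E-box letters were CAGGTG for Slc4a4 and CACCTG for Aqp1, which is the same hexamer read on the other strand, and the Cftr stretch held none. Promoters were searched for 6 of the 8 genes, with 2 starts each for Slc4a2 and Slc4a4. Car2 had no promoter entry, and Slc12a2 was left out of the search. Among these 8 stretches, 3 held CANNTG, the Aqp5 stretch with CACGTG being the third, against 66.2% of all 32851 promoters in the table over the same 250 bases. The stretches before the first Slc4a4 start, both Slc4a2 starts and the Slc26a6 start held none. Whether the motif bears on the levels of these genes was not tested. Neither CAGATG nor GTTAAT, searched on both strands, was in any of the 8 stretches, and they were in 14.4% and 6.43% of all promoters. The E-box pattern includes CAGATG and the CANNTG pattern is its own reverse complement. The Cftr stretch had a GC content of 76.4% and the Slc4a4 stretch shown 48.8%, beside a median of 52.4% over the table.

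In GFP cells at 2 days the levels of the genes spanned a wide range when set per kilobase of exon. Car2 stood highest with a mean of 88.2 CPM per kb, and its replicates ran from 65.4 to 108 CPM per kb. Slc12a2 followed at 31.2 CPM per kb (24.3 to 41.1) and Slc4a4 at 20.2 CPM per kb (18.6 to 22.6), and the range of Slc4a4 lay below that of Slc12a2. Aqp5 (8.23 CPM per kb, range 3.87 to 13.4) and Slc4a2 (6.14 CPM per kb, range 5.54 to 6.51) overlapped. The lowest levels, also overlapping, were those of Slc26a6 (0.839 CPM per kb), Cftr (0.631 CPM per kb) and Aqp1 (0.523 CPM per kb). Car2, Slc12a2 and Slc4a4 also took the upper ranks in both no-color groups at 8 days, where Car2 reached 227 CPM per kb in cells from WT organoids and 253 CPM per kb in cells from 6S-A organoids. Cftr and Aqp1, the apical channel and the water channel by which duct cells are often described, were thus measured from few reads (1421 and 436 over all libraries, against 65612 for Car2), as was Slc26a6 (1485).

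At 2 days, Car2, Slc4a4 and Slc4a2 were lower with WT Ngn3 than with GFP, and Car2, Slc4a4, Slc12a2 and Aqp5 were lower with 6S-A Ngn3. None of the 8 genes rose in either comparison. The count was 3 of 8 lower for WT, where 5.23% of the 23844 genes tested were lower, and 4 of 8 for 6S-A, where 8.62% were lower (edgeR quasi-likelihood test, adjusted p under 0.05 over all genes tested). In a fit blocked by replicate number, 5 of 8 were lower for WT, where 8.53% of all genes were. For 6S-A 4 of 8 were lower in that fit, where 12.1% of all genes were. The median log2 fold change of the 8 genes was -0.82 for WT and -1.27 for 6S-A, beside 0.01 and 0.02 over all genes tested. In each comparison 6 of the 8 genes had all 3 Ngn3 replicates below all 3 GFP replicates, which 13.0% of all genes tested showed for WT and 15.9% for 6S-A. The comparisons share the GFP replicates. In pools of sorted cells, fewer cells with a transcript and less of it per cell cannot be told apart.

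**Figure D1:**
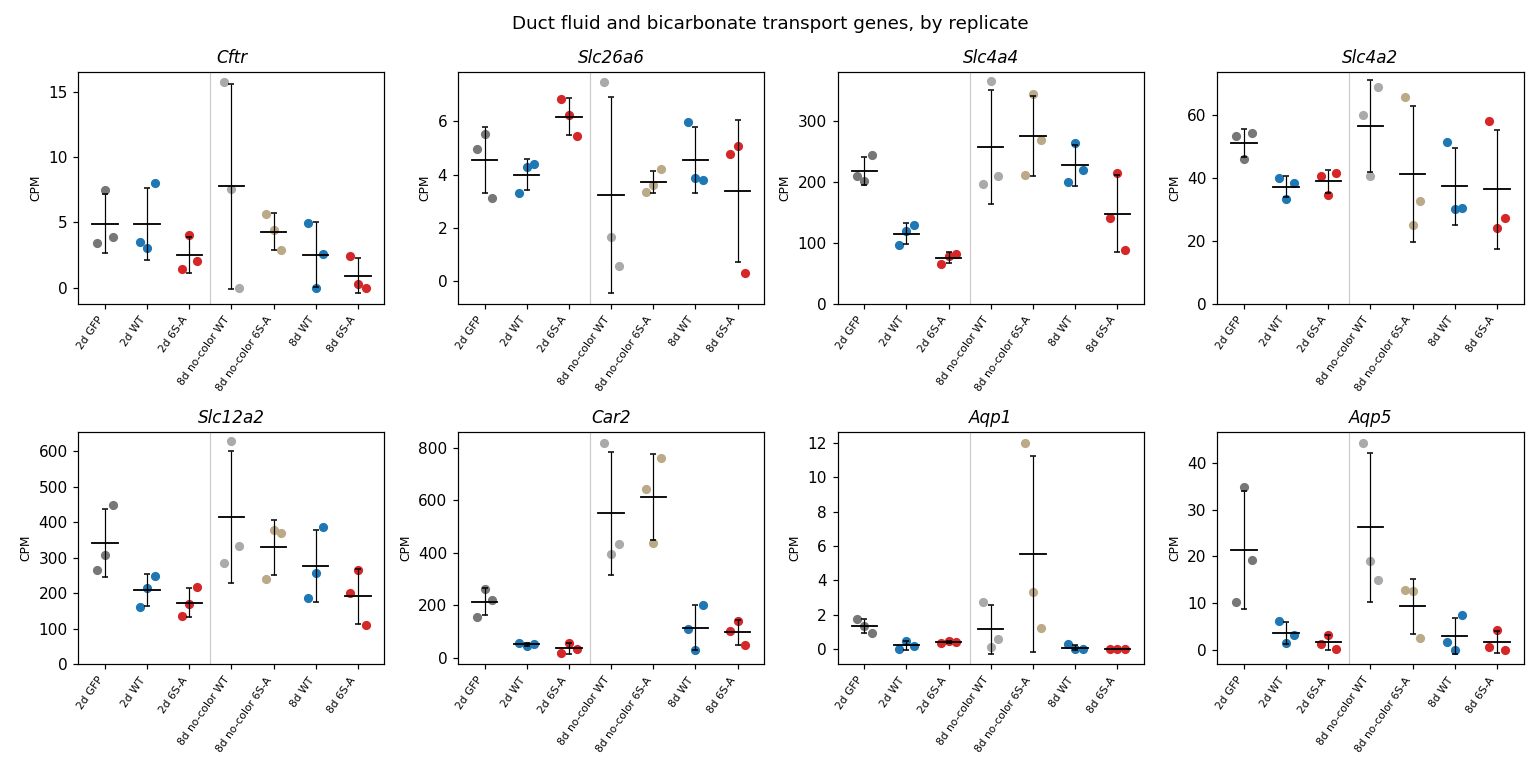
Level of each of the 8 genes (vertical axis, CPM, starting at or just below 0, a scale of its own for each gene) in the 3 replicates of the 7 groups (horizontal axis). Points are replicates, bars are means and whiskers are SD. Car2 was 158 to 261 CPM in the GFP replicates and 18.5 to 58.6 CPM in the WT and 6S-A replicates at 2 days.

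Among the apical transporters, Cftr, the channel defective in cystic fibrosis, was 3.38, 7.46 and 3.87 CPM in the GFP replicates, 3.52, 3.03 and 8.02 CPM in WT and 1.42, 4.06 and 2 CPM in 6S-A. The 3 groups overlapped. The log2 fold change against GFP was -0.01 ± 0.46 (SE) for WT (edgeR, adjusted p = 0.995) and -0.99 ± 0.48 for 6S-A (edgeR, adjusted p = 0.191). The 95% interval for WT ran from -1.01 to 0.99, so a change of up to about that size in either direction could not be seen with these replicates. Exons of Cftr overlap those of the antisense gene Gm15592, and the library kit does not mark strand.

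Slc26a6 was 4.97, 5.51 and 3.13 CPM with GFP, 3.32, 4.29 and 4.38 CPM with WT and 6.82, 6.24 and 5.45 CPM with 6S-A. The replicates of 6S-A lay above those of WT and overlapped those of GFP. Against GFP the log2 fold change was -0.18 ± 0.28 for WT (edgeR, adjusted p = 0.8) and 0.44 ± 0.28 for 6S-A (edgeR, adjusted p = 0.35).

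Of the basolateral transporters, Slc4a4 passed in both comparisons. It was 210, 201 and 244 CPM in GFP, 96.2, 119 and 130 CPM in WT and 65.2, 79.1 and 82.1 CPM in 6S-A, so the 3 groups did not overlap with each other. The decrease was 1.89-fold for WT (log2 fold change -0.92 ± 0.14; edgeR, adjusted p = 0.000533) and 2.91-fold for 6S-A (-1.54 ± 0.14; edgeR, adjusted p = 4.61e-06). Both calls held when any replicate was left out, with log2 fold changes of -1.02 to -0.82 for WT and -1.61 to -1.45 for 6S-A.

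Slc12a2, which supplies chloride for secretion, was 265, 308 and 449 CPM in GFP, 161, 214 and 250 CPM in WT and 135, 171 and 217 CPM in 6S-A. All Ngn3 replicates were below the lowest GFP replicate. The decrease passed the test for 6S-A (1.97-fold, log2 fold change -0.98 ± 0.23; edgeR, adjusted p = 0.0117) and in all alternatives but that with no filter on low counts (0.0697). The difference for WT did not (-0.71 ± 0.23; edgeR, adjusted p = 0.0751). In the fit blocked by replicate, WT passed as well (-0.69; edgeR, adjusted p = 2.14e-05).

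Slc4a2, which also exchanges anions in many other epithelia, differed least among the genes that passed. It was 53.1, 46.1 and 54.2 CPM in GFP, 40, 33.4 and 38.2 CPM in WT and 40.6, 34.7 and 41.5 CPM in 6S-A. The decrease was 1.37-fold for WT (log2 fold change -0.46 ± 0.13; edgeR, adjusted p = 0.0398), and 6S-A, at -0.40 ± 0.13, was just outside the threshold (edgeR, adjusted p = 0.0531). With the replicate block 6S-A passed (edgeR, adjusted p = 0.00484). The WT call was lost without GFP replicate 1 (edgeR, adjusted p = 0.0992), GFP replicate 3 (0.0918), WT replicate 2 (0.167) or WT replicate 3 (0.0745), and with the first technical repeat alone (0.581). Slc4a2 shares exon sequence with Fastk, on the opposite strand.

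Car2, the cytosolic carbonic anhydrase that makes bicarbonate from carbon dioxide, was 158, 261 and 222 CPM in the GFP replicates, 56.3, 46 and 53.2 CPM in WT and 18.5, 58.6 and 33.3 CPM in 6S-A. Neither Ngn3 group came near the lowest GFP replicate, while WT and 6S-A overlapped. The decrease was 4.11-fold for WT (log2 fold change -2.04 ± 0.36; edgeR, adjusted p = 0.00516) and 5.86-fold for 6S-A (-2.55 ± 0.37; edgeR, adjusted p = 0.001). Both passed in all 14 alternatives of the processing. The size for 6S-A depended on replicate 2 of that group, without which it was -3.05. Over all alternatives it ran from -3.05 to -1.91.

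The aquaporins were measured from fewer reads than Car2, with 3294 for Aqp5 and 436 for Aqp1 over all libraries. Aqp5, an apical water channel of secretory epithelia, was 10.1, 34.9 and 19.2 CPM in GFP, 6.13, 1.41 and 3.1 CPM in WT and 1.28, 3.23 and 0.133 CPM in 6S-A. All Ngn3 replicates lay below the lowest GFP replicate, which itself was well below the other two. The decrease passed for 6S-A (14.1-fold, log2 fold change -3.82 ± 0.91; edgeR, adjusted p = 0.02), whereas the difference for WT, at -2.57 ± 0.84, did not (edgeR, adjusted p = 0.0971). The 6S-A call was lost without GFP replicate 2 (edgeR, adjusted p = 0.0502), without 6S-A replicate 1 (0.0888), with the replicate block (0.0558) and with no filter on low counts (0.0643), and without 6S-A replicate 2 its size moved to -4.92.

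Aqp1, a water channel of the duct that capillaries and red blood cells also carry, was 1.78, 1.38 and 0.968 CPM in GFP, 0, 0.471 and 0.197 CPM in WT and 0.366, 0.468 and 0.443 CPM in 6S-A. These were 21 to 49 reads per GFP replicate and at most 10 reads per Ngn3 replicate. The groups with Ngn3 lay below GFP, but neither difference passed. The log2 fold change was -2.65 ± 0.81 for WT (edgeR, adjusted p = 0.0501) and -1.69 ± 0.76 for 6S-A (edgeR, adjusted p = 0.16). With the replicate block the WT difference passed (-2.83; edgeR, adjusted p = 0.028). It passed in 6 of 14 alternatives, over which its size ran from -4.92 to -2.04. The 6S-A difference passed in 0 of 14, with sizes of -1.99 to -1.39.

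**Figure D2:**
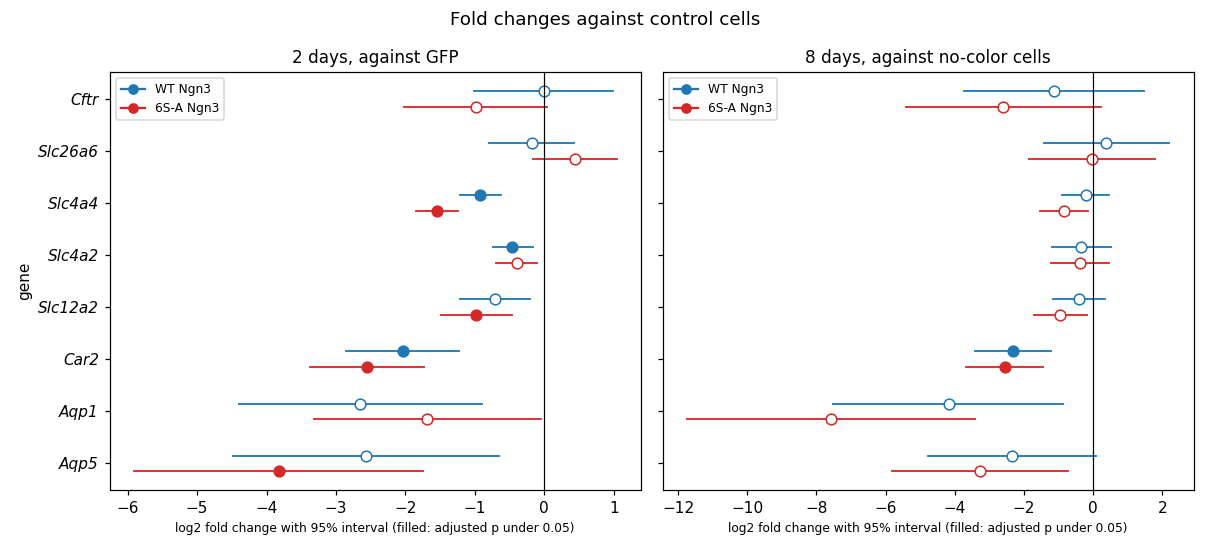
Log2 fold change of each gene (horizontal axis, with its 95% interval) for WT and 6S-A Ngn3 against GFP at 2 days (left) and against no-color cells at 8 days (right), with a scale for each panel. Filled points had an adjusted p under 0.05. At 2 days 3 points are filled for WT and 4 for 6S-A, and at 8 days Car2 is filled for both.

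Markers of other cell types were measured in the same libraries. Of the 14 duct markers, 9 fell in both comparisons at 2 days, among them Krt19 and Muc1, beside the 5.23% and 8.62% of all genes that were lower. With the replicate block 11 fell and Cdh1, the epithelial cadherin, rose in both, where 8.53% of all genes were lower and 9.47% higher for WT and 12.1% and 12.7% for 6S-A. The summed level of the duct markers was 20584 to 22280 CPM in GFP, 13134 to 13885 CPM in WT and 11145 to 11601 CPM in 6S-A. Of the 15 endocrine markers 11 were tested, and 10 rose in WT and 11 in 6S-A, where 11.8% and 18.1% of all genes passed in either direction (8 and 10 rose with the replicate block). Ins1 and Ins2, the insulin genes, had no read in any replicate at 2 days. The summed level of the 15 was 1.06 to 2.87 CPM in GFP, 262 to 1138 CPM in WT and 858 to 1746 CPM in 6S-A. The part of either shift in the lower transport genes was not tested. The 7 erythroid markers summed to 1.85 to 2.72 CPM in GFP, 2.14 to 4.15 CPM in WT and 2.66 to 3.11 CPM in 6S-A, most of it from Alas2, an enzyme of heme synthesis (means of 2.13, 3.25 and 2.82 CPM), while both alpha-globin genes had no read in any of these groups. The 6 endothelial markers summed to 0.922 to 1.89 CPM in GFP, 1.67 to 5.89 CPM in WT and 2.66 to 10.2 CPM in 6S-A. Kdr was the highest of them, with means of 0.739, 3.7 and 4.35 CPM. Of 5 tested, 0 rose in WT and 1 in 6S-A, beside the 11.8% and 18.1% of all genes that passed. With the replicate block Kdr and Pecam1 rose in 6S-A, where 12.7% of all genes were higher. The part of either list in the values of Aqp1 was not tested. Summed levels of the 13 acinar markers were at most 8.07 CPM, those of the 8 mesenchymal markers at most 4.32 CPM and those of the 6 leukocyte markers at most 7.62 CPM in any replicate at 2 days.

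Single pools showed how evenly the changes were spread. All 18 WT pools and 17 of 18 6S-A pools held less Car2 than the lowest GFP pool (107 CPM), with medians of 198 CPM in GFP, 54.4 CPM in WT and 31.3 CPM in 6S-A. For Slc4a4, 17 of 18 WT pools and all 18 6S-A pools lay below the lowest GFP pool (177 CPM), with medians of 218, 118 and 73.2 CPM. Aqp5 was uneven: GFP pools ran from 0.53 to 96.7 CPM, 3 of 18 WT pools and 10 of 18 6S-A pools had no read, and a WT pool of replicate 1 reached 43.3 CPM. Cftr ranged from 0.978 to 14 CPM over the GFP pools, 0.232 to 27.4 CPM over WT and 0 to 16.1 CPM over 6S-A. Pools of the same replicate share their culture and were not tested as replicates. Technical repeats 2 and 3 of replicates 2 and 3 at 2 days were far closer to each other (chi-square per gene of 1.59 to 2.35 in 6 pairs) than the other 142 pairs of pools within a replicate (5.21 to 55.7), so they add less than separate pools would.

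**Figure D3:**
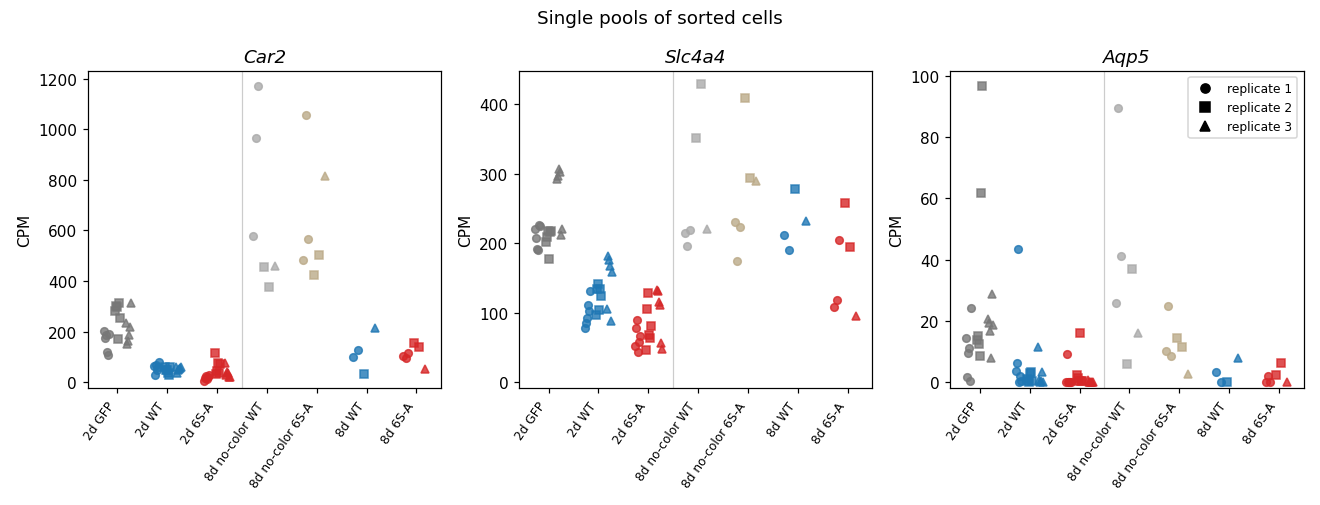
Car2, Slc4a4 and Aqp5 (vertical axis, CPM) in each of the 76 pools of sorted cells, by group (horizontal axis), with the marker shape giving the replicate. Nearly all pools with Ngn3 lie below the lowest GFP pool for Car2 and Slc4a4 at 2 days, while the Aqp5 pools overlap.

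The direct comparison of 6S-A with WT Ngn3 at 2 days addressed whether the serine-proline sites mattered for these genes. None of the 8 passed, where 0.0126% of all genes tested did, and 2 had an unadjusted p under 0.05, where 5.79% of all genes did. Slc4a4 came nearest, with all 6S-A replicates below all WT replicates (log2 fold change -0.62 ± 0.14, 95% interval -0.92 to -0.32; edgeR, adjusted p = 0.274). It passed with the replicate block (edgeR, adjusted p = 0.00652), with DESeq2 (0.0279) and without a filter on low counts (0.00662). Slc26a6, the other gene with an unadjusted p under 0.05, had a log2 fold change of 0.62 ± 0.28 (95% interval 0.01 to 1.23; edgeR, adjusted p = 0.85). Its 6S-A replicates all lay above those of WT. How many of all genes had 6S-A and WT replicates apart, as Slc4a4 and Slc26a6 did, was not counted. The interval was -0.23 to 0.34 for Slc4a2 and -0.77 to 0.24 for Slc12a2. For Car2 it was -1.30 to 0.28, for Cftr -2.01 to 0.05, for Aqp1 -0.83 to 2.76 and for Aqp5 -3.29 to 0.78, so the data leave room for sizeable differences in these 4 genes.

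At 8 days Car2 was the only gene of the 8 that passed against no-color cells, and it was lower with both forms. This was 1 of 8 genes lower for WT, where 0.173% of the 19696 genes tested were lower, and 1 of 8 for 6S-A, where 0.340% were. Car2 was 819, 396 and 435 CPM in no-color cells of WT organoids, 642, 437 and 759 CPM in no-color cells of 6S-A organoids, 112, 31.2 and 202 CPM in WT and 104, 140 and 48.7 CPM in 6S-A. No Ngn3 replicate overlapped a no-color replicate. Lack of overlap below the controls was seen for 1 of the 8 genes in WT and for 2, Car2 and Aqp1, in 6S-A, against 2.23% and 2.18% of all genes tested. The decrease was 4.97-fold for WT (log2 fold change -2.31 ± 0.52; edgeR, adjusted p = 0.0453) and 5.9-fold for 6S-A (-2.56 ± 0.52; edgeR, adjusted p = 0.0169).

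The call for WT was near the threshold. It was lost without WT replicate 1 or 2, without replicate 1 or 3 of either no-color group and without replicate 2 of the 6S-A no-color group, with adjusted p-values of 0.0562 to 0.231 (edgeR), against its own no-color group alone (0.141), with edgeR's filter on low counts (0.0532) and with the first technical repeat alone (0.0645). The call for 6S-A was lost without 6S-A replicate 1 (edgeR, adjusted p = 0.0843) or 3 (0.0701) and with passage 2 only (0.0893). Under every omission of a replicate the log2 fold change stayed between -2.98 and -1.87 for WT and between -2.92 and -2.29 for 6S-A, the extremes for WT being those without its replicates 3 and 2. In single pools, all 4 WT pools and all 6 6S-A pools were below the lowest of the 12 no-color pools (377 CPM).

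The aquaporins were low in Ngn3 cells at 8 days. Aqp1 had no read in any 6S-A replicate and 3, 0 and 0 reads in the WT replicates, against 42, 1 and 1 reads in no-color cells of WT organoids and 196, 37 and 10 reads in those of 6S-A organoids. Setting the 6S-A replicates at a limit of 3 reads each, Aqp1 was at least 10-fold lower than the mean of the no-color replicates, which rested largely on the 12 CPM of a single replicate. The difference did not pass (edgeR, adjusted p = 0.0706), but it passed with the replicate block (0.0255). Aqp5 was 44.4, 19 and 15 CPM in no-color cells of WT organoids, 12.8, 12.6 and 2.47 CPM in those of 6S-A organoids, 1.58, 0 and 7.36 CPM in WT and 0.545, 4.23 and 0 CPM in 6S-A. Its groups overlapped through the lowest no-color replicate, and neither difference passed (edgeR, adjusted p = 0.496 for WT and 0.243 for 6S-A).

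None of the basolateral genes passed at 8 days. Slc4a4 was 196, 365 and 209 CPM and 212, 344 and 269 CPM in no-color cells of WT and 6S-A organoids, 199, 264 and 219 CPM in WT and 141, 215 and 88.8 CPM in 6S-A. The WT values fell within the range of the no-color replicates, and 2 of the 3 6S-A values lay below it. The log2 fold change was -0.22 ± 0.32 for WT (95% interval -0.90 to 0.46; edgeR, adjusted p = 0.872) and -0.84 ± 0.33 for 6S-A (-1.54 to -0.15; edgeR, adjusted p = 0.279). Slc12a2 was 186 to 387 CPM in WT and 112 to 266 CPM in 6S-A, against 239 to 628 CPM over the 6 no-color replicates (edgeR, adjusted p = 0.751 and 0.272). Slc4a2 was 30 to 51.5 CPM in WT, 24 to 58 CPM in 6S-A and 25.1 to 68.8 CPM in no-color cells (edgeR, adjusted p = 0.829 and 0.797).

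Cftr at 8 days was 15.7, 7.55 and 0 CPM in no-color cells of WT organoids and 5.63, 4.42 and 2.84 CPM in those of 6S-A organoids. In the Ngn3 cells it was 4.94, 0 and 2.59 CPM for WT and 2.42, 0.235 and 0 CPM for 6S-A (edgeR, adjusted p = 0.812 and 0.467). A replicate without a Cftr read thus occurred in 3 of the 4 groups. Slc26a6 was 3.78 to 5.96 CPM in WT, 0.309 to 5.06 CPM in 6S-A and 0.578 to 7.46 CPM in no-color cells (edgeR, adjusted p = 0.927 and 0.995).

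The endocrine markers differed between replicates at 8 days. Their summed level was 45.2 to 4911 CPM in WT and 256 to 5392 CPM in 6S-A, against at most 15.6 CPM in a no-color replicate. The duct markers summed to 16566 to 19507 CPM in WT and 11782 to 27828 CPM in 6S-A, against 19463 to 44965 CPM in the no-color groups, and of the 14 markers Krt19 fell in WT and Krt19, Muc1 and Cldn7 fell in 6S-A, beside the 0.173% and 0.340% of all genes that were lower. With the replicate block 3 of 14 fell in WT and 5 of 14 in 6S-A, where 0.619% and 1.18% of all genes did. The erythroid markers summed to at most 1.77 CPM in WT and 1.98 CPM in a no-color replicate but 3.4 to 5.76 CPM in 6S-A, where Alas2 had a mean of 4.63 CPM. Both alpha-globin genes had no read in any group at 8 days. The endothelial markers summed to 0.199 to 1.29 CPM in WT and 0.666 to 3.86 CPM in 6S-A, against at most 0.428 CPM in a no-color replicate. The acinar markers summed to at most 11.1 CPM in WT and 15.3 CPM in 6S-A, against 7.04 to 20.8 CPM in the no-color groups. The part of these lists in the values of Aqp1 was not tested. The part of the endocrine and duct markers in the lower Car2 was not tested.

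None of the 8 genes passed between WT and 6S-A Ngn3 at 8 days (0% of 19696 genes passed, 415 with an unadjusted p under 0.05, none of them among the 8; all 8 adjusted p = 1 in edgeR). The intervals were wide: -1.37 to 0.88 for Car2, -1.40 to 0.16 for Slc4a4 and -4.41 to 1.48 for Cftr on the log2 scale. None passed between the no-color groups either (0% of genes, 1649 with an unadjusted p under 0.05, none of them among the 8). Aqp1 had the widest gap between these controls, 2.75, 0.109 and 0.578 CPM against 12, 3.34 and 1.23 CPM (log2 fold change 2.22 ± 1.40 for 6S-A against WT; edgeR, adjusted p = 0.707). Aqp5 was the 1 gene of the 8 whose no-color groups did not overlap, being lower in cells of 6S-A organoids (log2 fold change -1.47 ± 1.16; edgeR, adjusted p = 0.792), as were 5.18% of all genes tested. The change in the difference between 6S-A and WT from 2 to 8 days passed for none of the 8 (0% of 19589 genes passed, 445 with an unadjusted p under 0.05, none of them among the 8).

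Between 2 and 8 days none of the 8 genes passed in WT, 6S-A or control cells, where 0.168%, 0.562% and 1.35% of all genes tested did. Each such comparison is between separate sets of libraries, and for the controls also between GFP-only and no-color cells, which cannot be told apart from time. Slc4a4 was higher at 8 days in every WT replicate than in any WT replicate at 2 days (log2 fold change 0.98 ± 0.29; edgeR, adjusted p = 0.27), and likewise in 6S-A (0.97 ± 0.29; edgeR, adjusted p = 0.143; 0.0494 in DESeq2). The reverse held in 6S-A for Aqp1, with no read at 8 days against 0.366 to 0.468 CPM at 2 days (edgeR, adjusted p = 0.23), and for Slc26a6, with 0.309 to 5.06 CPM against 5.45 to 6.82 CPM (edgeR, adjusted p = 0.707). Car2 was higher in every no-color replicate than in any GFP replicate (1.44 ± 0.46; edgeR, adjusted p = 0.124; 0.0248 in DESeq2). How many of all genes separated in these ways over time was not counted, so no result is drawn from the separations. The log2 fold change of Car2 over time was 1.15 ± 0.50 in WT (edgeR, adjusted p = 0.523) and 1.41 ± 0.50 in 6S-A (edgeR, adjusted p = 0.225).

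Other genes of ductal secretion were counted from a pair of lists chosen by function. Of 24 further ion, acid-base and water transporters, 19 were tested at 2 days. With WT Ngn3 6 fell and 2 rose, and with 6S-A 7 fell and 2 rose, where 11.8% and 18.1% of all genes tested passed in either direction. Blocked by replicate, 8 fell and 2 rose with each form, where 8.53% and 12.1% of all genes were lower. Their median log2 fold change was -0.32 and -0.51, beside 0.01 and 0.02 for all genes. The potassium channel Kcnn4 fell from 149 ± 7.64 CPM in GFP to 36.9 ± 4.56 CPM in WT and 17.3 ± 5.84 CPM in 6S-A (edgeR, adjusted p = 2.44e-05 and 5.33e-07). The chloride channel and transporter Slc26a9 fell from 56.7 ± 18.6 CPM to 17.7 ± 6.66 CPM and 6.12 ± 2.06 CPM (edgeR, adjusted p = 0.00823 and 0.000104; 0.0665 for WT with no filter on low counts). Car9, a membrane-bound carbonic anhydrase known as a marker of hypoxia, fell from 202 ± 35.7 CPM to 50.7 ± 5.76 CPM and 45.8 ± 26.7 CPM (edgeR, adjusted p = 0.00987 and 0.00444; 0.0571 for WT without its replicate 3).

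The genes of that list that rose were Kcnma1 and Slc4a7. Kcnma1, a large-conductance potassium channel also present in neurons and endocrine cells, had a read in a single GFP replicate only and stood at 13.3 ± 7.44 CPM in WT and 22.6 ± 5.52 CPM in 6S-A (edgeR, adjusted p = 2.87e-06 and 7.57e-07). Slc4a7, an electroneutral sodium-bicarbonate cotransporter, rose from 59.8 ± 8.23 CPM to 89.7 ± 13.9 CPM and 89.4 ± 15.9 CPM (edgeR, adjusted p = 0.0276 and 0.0221). Both of its calls were lost without GFP replicate 1 or 2, or without replicate 3 of the Ngn3 group (adjusted p of 0.102 to 0.113 for WT and 0.0862 to 0.115 for 6S-A), and with the first technical repeat alone (0.681 and 0.71). In the main fit it and Slc4a4, both bringing bicarbonate into the cell, thus moved in opposite directions. At 8 days 2 of 16 tested fell with each form, where 0.914% of all genes passed for WT and 1.71% for 6S-A. These were again Kcnn4 and Slc26a9. Kcnn4 was 51.1 ± 22.4 CPM in WT and 32.6 ± 21.9 CPM in 6S-A against 191 ± 4.58 CPM and 206 ± 89.9 CPM in the no-color groups of WT and 6S-A organoids (edgeR, adjusted p = 0.0418 and 0.00482). For Slc26a9 the adjusted p was 0.0418 in WT and 0.0141 in 6S-A (edgeR). The WT calls passed in 7 of 18 alternatives for Kcnn4 and 9 of 18 for Slc26a9, and omission of any WT replicate ended both. In 6S-A, Kcnn4 passed in 17 of 18 alternatives, the exception being passage 2 only (adjusted p = 0.0883). Slc26a9 passed in 16, its call being lost without 6S-A replicate 3 (adjusted p = 0.0611) and against its own no-color group (0.112). Kcnma1 also rose in 6S-A at 8 days with the replicate block (log2 fold change 4.83; edgeR, adjusted p = 0.0138), as it did with no filter on low counts (3.73; 0.0184).

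Of 16 receptors and signals of ductal secretion, 15 were tested at 2 days, and 3 rose and 2 fell with each form of Ngn3, beside the 11.8% and 18.1% of all genes that passed. With the replicate block 4 rose and 2 fell for WT, where 9.47% of all genes were higher and 8.53% lower, and 4 rose and 4 fell for 6S-A, where 12.7% were higher and 12.1% lower. Their median log2 fold change was 0.01 for WT and 0.00 for 6S-A. The genes that rose were the adenosine receptors Adora2b and Adora2a and the kinase Wnk4, a regulator of chloride transporters. The Wnk4 calls were lost without GFP replicate 1 (edgeR, adjusted p = 0.116 for WT and 0.0746 for 6S-A) and under other omissions. That of Adora2a for WT was lost with the first technical repeat alone (0.0614). Adora2b went from 5.66 ± 1.82 CPM in GFP to 19.7 ± 0.589 CPM in WT and 18.9 ± 2.64 CPM in 6S-A (edgeR, adjusted p = 0.000165 and 0.000128). The genes that fell were the nucleotide receptor P2ry2, from 109 ± 8.59 CPM to 54.2 ± 9.39 CPM and 45.2 ± 7.06 CPM (edgeR, adjusted p = 0.00048 and 3.89e-05), and Slc9a3r1, a scaffold that binds Cftr at the apical membrane, from 101 ± 4.28 CPM to 65.7 ± 6.49 CPM and 56.4 ± 5.45 CPM (edgeR, adjusted p = 0.0034 and 0.000181; 0.35 for WT with the first technical repeat alone). Sctr, the receptor for the hormone secretin, stayed at or below a mean of 0.347 CPM in all 7 groups. At 8 days none of the 14 tested passed in WT or 6S-A. Between the controls of 8 and 2 days Prkaca, a catalytic subunit of protein kinase A, was lower at 8 days, a gene named here after its value was seen.

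**Figure D4:**
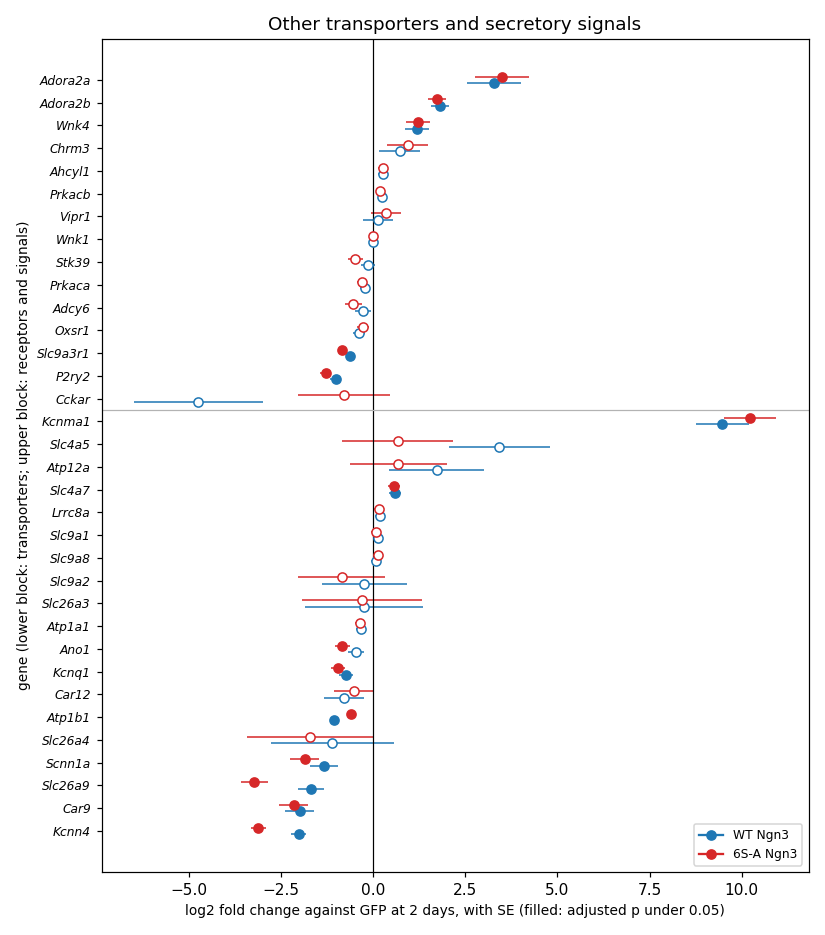
Log2 fold change against GFP at 2 days (horizontal axis, whiskers are SE) for the tested genes of the 2 lists (vertical axis), in WT and 6S-A Ngn3 cells. Filled points had an adjusted p under 0.05. Among the genes filled in both comparisons, Kcnn4, Car9 and Slc26a9 lie lowest and Kcnma1 lies highest.

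The genes whose levels ran most like those of each transport gene were sought among 9924 well-measured genes, by the Pearson correlation of log2 CPM over the 21 replicate samples. These samples fall into the 7 groups, so the values describe shared group differences as well as shared variation, and no test was made. For Car2 they were Il1r1 and Sftpd (both r = 0.96), for Slc4a4 Sestd1 (0.93), and for Slc12a2 Raph1 (0.93) and Acsl4 (0.90). For Slc4a2 they were Vars2 (0.91) and Atg7 (0.88), and for Slc26a6 Lhpp (0.89) and Gpatch2l (0.88). Aqp5 ran most like the mitotic genes Birc5 (0.87) and Ccnb2 (0.85), Cftr like Mars2 (0.87) and Tspan12 (0.85), and Aqp1 like Ralb (0.81) and Hpn (0.79). Within the group itself, Slc4a4 and Slc12a2 had the highest correlation (r = 0.84), followed by Car2 with Slc4a4 (0.74), whereas Car2 and Slc26a6 had one of -0.10.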

How the data were processed

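RNA-seq libraries were made with the Smart-seq2 protocol from pools of 50 cells sorted by FACS, in 7 groups of 3 biological replicates. Per the labels and methods, reads were aligned to mm10 with GSNAP and assigned to Ensembl genes with HTSeq 0.5.3p3. The table deposited by the authors holds raw counts of reads per gene (46078 genes and 92 spike-ins, 45143 genes with a symbol). Of all reads, 22.5% were listed as not aligned, 14.4% as in no gene and 8.06% as ambiguous, and these lines were left out of library sizes and tests. Whether counting used strand is not given in the sources used here. The paper and the labels name different sequencer models.

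A library was kept if spike-ins took below 30% of its reads, genes held above 1000000 reads and above 10000 genes were detected (76 of 77, with 1501002 to 9202142 reads). The library left out was 8-day WT replicate 2, technical repeat 1 (849278 reads). Technical repeats were summed. Genes detected in at least 5 kept libraries of a time point were tested (23844 at 2 days, 19696 at 8 days, 19589 in the joint fit of both) with edgeR 4.0.16 (TMM normalization and a robust quasi-likelihood fit, with p-values adjusted by Benjamini-Hochberg and called at 0.05). Each time point was fitted as a whole. At 8 days the control was the mean of both no-color groups. CPM values use TMM factors over all 21 replicate samples. Counting error alone limits low genes, and 3 reads per replicate served as the floor for bounds. On simulated data the test returned the fold changes put in, but more of its calls were false than the nominal share, so calls close to the threshold are less secure than their adjusted p. It recovered few 2-fold changes at 8 days.

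Same-numbered replicates of different groups deviated together from their group means (r of 0.1454 to 0.5635 in 9 pairs at 2 days and 0.1131 to 0.6677 in 18 pairs at 8 days, against medians of -0.1403 and -0.2587 for different numbers), so the numbers, which come from the labels, were treated as pairing the samples. The fit with the number as a block was run beside the unblocked one. The labels do not say what the numbers stand for, so the p-values measure the spread between these samples. DESeq2 1.42.0, size factors of scran 1.30.0, edgeR's filter on low counts or none, all libraries, only the first technical repeat, leaving out technical repeat 3 of replicates 2 and 3 at 2 days, passage 2 only, each form against its own no-color group, and leaving out each replicate were the other alternatives.

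The genes and lists were chosen with earlier results of these data known. Named beside the 8 genes were Neurog3 and, per list and direction, up to 3 genes that passed in both 2-day comparisons with GFP and changed most, genes that passed at 8 days, and for each of the 8 the 2 genes with the most similar levels (mean log2 CPM above 3, prior count 2), of which not every one is reported here. Duct markers are named as examples. Coordinates are those of GRCm38.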

Additional observations from a re-analysis of the deposited data

How the results depend on the processing

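Over the 6 comparisons of WT, 6S-A and control cells at each time point, 660 of the values of single genes under the alternatives kept their direction and side of the threshold, 26 passed it newly, 23 no longer passed and 27 changed sign. The number of the 8 genes past the threshold for WT against GFP at 2 days went from 3 to 5 with DESeq2, with edgeR's filter and with the replicate block, and to 4 with scran's size factors, with no filter and without technical repeat 3. For 6S-A against GFP it went from 4 to 2 with no filter and to 5 with scran's size factors, DESeq2 or edgeR's filter. For 6S-A against WT at 2 days it was 1 with DESeq2, the replicate block or no filter. For WT at 8 days it was 0 with edgeR's filter, the first technical repeat or its own no-color group and 2 with no filter, and for 6S-A at 8 days it was 3 with DESeq2, 2 with the replicate block, 3 with no filter and 0 with passage 2 only. Over time it was 1 with DESeq2 both in 6S-A (Slc4a4) and in controls (Car2). Leaving out single replicates gave 2 to 3 genes for WT and 3 to 4 for 6S-A against GFP at 2 days and 0 to 1 for either form at 8 days. Beyond the calls given with their blocked values in the report, the block changed no other call among the 8.

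The changes of sign were all in genes that had not passed. For WT against GFP, Cftr was 0.05 on the log2 scale with the block, 1.93 with the first technical repeat and -0.58 to 0.41 over single omissions. With the first technical repeat, 6S-A against GFP gave 0.95 for Cftr and -1.0 for Slc26a6, and 6S-A against WT gave 0.06 for Car2, -0.03 for Slc26a6 and 0.13 for Slc12a2 at 2 days and 0.17 for Cftr at 8 days. Slc4a2 in 6S-A against WT ran from -0.02 to 0.14 at 2 days over omissions. At 8 days, Slc26a6 in 6S-A against no-color cells was 0.28 with passage 2 only and -0.42 to 0.66 over omissions. In 6S-A against WT at 8 days, passage 2 alone gave 0.76 for Car2, 0.02 for Slc4a2, 0.08 for Slc12a2 and 1.23 for Aqp5, and omissions gave -0.69 to 0.42 for Car2, -0.58 to 0.24 for Slc4a2, -3.17 to 0.72 for Aqp5, -0.81 to 0.14 for Slc26a6 and -3.93 to 0.00 for Aqp1. The filters change which genes are tested and the omissions the number of samples. For the others the cause was not tested. Depth limits Aqp1, Cftr and Slc26a6, which had the fewest reads of the 8 genes, and the 8-day groups throughout.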
